A study of Mus musculus with 18 samples.

Results

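The pyruvate dehydrogenase complex and the citric acid cycle were followed through 9 of their genes, Pdhb, Dlat, Cs, Idh3a, Ogdh, Suclg1, Sucla2, Suclg2 and Mdh2, on arrays of mouse adipose tissue. The 9 genes form a named list and were found by symbol among 19937 genes represented by probe sets with a single gene symbol, with the brightest probe set standing for each gene. Control BAT was brown adipose tissue of 5 male wild-type C57BL/6J mice, and FXR BAT was the same tissue of 5 male mice with adipose-specific overexpression of human FXR, the farnesoid X receptor, a nuclear receptor that binds bile acids. Control WAT and FXR WAT were white adipose tissue of 4 male mice of each genotype. Mice of all 4 groups were 10 weeks old and ate chow, and 500 ng of RNA was labelled per array. The sources used here name neither the promoter of the transgene nor the WAT depot, and do not say if the 2 tissues were taken from the same animals. For control BAT 2 and 4 the labels also mention 6 weeks of feeding.

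Pyruvate dehydrogenase sits in the mitochondrial matrix and turns pyruvate into acetyl-CoA, the fuel of the citric acid cycle. The cycle oxidises acetyl-CoA to carbon dioxide and passes the electrons to the respiratory chain as NADH and as reduced flavin. Brown adipocytes are rich in mitochondria and use this electron flow to make heat through the uncoupling protein Ucp1, whereas white adipocytes store triglyceride and hold far fewer mitochondria.

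Levels are given as log2(intensity + 1), so a difference of 1 is a doubling. A probe set's level depends on its own probes, so a higher level of one gene than of another does not mean more RNA. Defining markers fitted the labelled tissues: the level of Ucp1 lay between 13.09 and 13.42 in control BAT and between 5.73 and 5.86 in control WAT. The mouse probe set of Nr1h4, the gene of FXR, read 6.21 ± 0.05 (SD, n = 5) in control BAT and 6.26 ± 0.05 (n = 5) in FXR BAT, which did not differ by limma's test (adjusted p = 0.408). Whether that probe set binds the human transcript was not tested, so it is no check of the genotype labels. Array medians lay between 93.1 and 99.9 intensity units in BAT and between 60.5 and 61.7 in WAT. Per the design text, samples within a group are biological replicates.

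Promoter sequences were set beside the members first, because most members were lower in FXR BAT, a direction that many bright genes shared. RefSeq windows of GRCm38.p6 were found for 8 of the 9 genes, and the 250 bases before each start site were searched on both strands for 4 motifs. The cAMP response element TGACGTCA was found before Mdh2 and Ogdh, and 1.77% of all genes with a window hold it. The element of the nuclear respiratory factor NRF1 (GCGCA and GCGC with any 1 base between them) was found before Sucla2, and 4.23% of all genes hold it. TNAAGGTCA, the element of the oestrogen-related receptors, and the inverted repeat bound by FXR with its partner RXR (AGGTCA and its reverse complement with 1 base between them) were in no member's window and in 1.30% and 0.0074% of all genes. No motif overlapped another in the printed windows, the cAMP response element was added to the search after the sequences had been seen, and a match describes letters, not binding. Of the 5 windows that held a match, 1 for each of these 3 genes is printed 5′ to 3′ on the strand of the gene, up to the base before the start, with the matched letters in capitals. The windows run over chr5:135778399-135778648 (plus strand), chr11:6291347-6291596 (plus strand, the first of 6 start windows of Ogdh) and chr14:73552536-73552785 (plus strand).
Mdh2: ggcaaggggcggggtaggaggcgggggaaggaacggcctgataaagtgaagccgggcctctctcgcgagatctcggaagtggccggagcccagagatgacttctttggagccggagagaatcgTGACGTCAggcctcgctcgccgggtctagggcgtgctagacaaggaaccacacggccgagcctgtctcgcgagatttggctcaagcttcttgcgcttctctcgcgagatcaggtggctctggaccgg
Ogdh: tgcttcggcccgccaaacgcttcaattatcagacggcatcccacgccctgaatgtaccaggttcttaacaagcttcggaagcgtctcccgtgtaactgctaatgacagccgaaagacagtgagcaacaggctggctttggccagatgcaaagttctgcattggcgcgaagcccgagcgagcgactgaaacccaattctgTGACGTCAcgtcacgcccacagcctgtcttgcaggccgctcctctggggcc
Sucla2: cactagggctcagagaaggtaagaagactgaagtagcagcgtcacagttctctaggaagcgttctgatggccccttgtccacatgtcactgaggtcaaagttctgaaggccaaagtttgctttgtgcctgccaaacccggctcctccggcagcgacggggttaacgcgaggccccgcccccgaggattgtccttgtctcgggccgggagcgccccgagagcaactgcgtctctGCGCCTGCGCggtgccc
The match in Mdh2 lies 127 to 120 bases before the start, the one in Ogdh 51 to 44 bases before it, and the one in Sucla2, on the opposite strand, 17 to 8 bases before it.

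The first comparison asked how the 9 genes differed between FXR and control mice in BAT. Of the 9 members, 8 were lower in FXR BAT at an adjusted p below 0.05 (limma, Benjamini-Hochberg over all genes), and Pdhb was not called. Across all 19937 genes, 8.75% were lower and 7.01% were higher by the same rule. The members' median change was -0.31 on the log2 scale against 0.01 for all genes. For 5 members, Dlat, Cs, Idh3a, Ogdh and Sucla2, every FXR array lay below every control array, which held for 6.29% of all genes. Without control BAT 2, 5 members were called lower, and Suclg1, Suclg2 and Mdh2 lost their calls. The sizes were modest, with FXR BAT between 75.4% and 85.8% of the control level for the 8 called genes. In a bulk tissue sample, fewer cells of a type and less RNA per cell cannot be told apart.

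Genes bright in control BAT were mostly lower in FXR BAT, and the members are bright. The members were set beside the 529 genes at least as bright in control BAT as Suclg2, the dimmest member there (mean 10.29). Of these, 54.8% were lower in FXR BAT and 1.13% were higher, and the median change was -0.26. Picking genes by their control BAT level tilts these values toward lower in FXR BAT, by an amount that was not tested. The 99% quantile of log2 levels averaged 11.29 on control BAT arrays and 11.09 on FXR BAT arrays. When quantile normalization gave every array the same distribution, 3 members (Dlat, Idh3a and Ogdh) were called lower, the members' median change was -0.14, and 6.44% of all genes and 21.7% of the bright ones were lower. The same 3 genes were the ones still called when control BAT 2 and 4 were left out, and they were called in all 21 other settings run for this comparison.

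Pdhb (chr14:8165991-8173303, GRCm38.p6) encodes the beta subunit of pyruvate dehydrogenase's first enzyme, which decarboxylates pyruvate. Its levels in control BAT 1 to 5 were 12.31, 12.24, 12.42, 12.26 and 12.25, and in FXR BAT 1 to 5 they were 12.29, 12.23, 11.71, 12.21 and 11.77. FXR BAT 3 and 5 stood well below all controls, while the other 3 FXR arrays lay within or just under the control range. The difference of -0.26 ± 0.11 (SE) did not pass (adjusted p = 0.162, limma).

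Dlat (chr9:50634633-50659780) encodes the lipoyl-bearing acetyltransferase core of the complex. Its levels were 11.65, 11.59, 11.82, 11.69 and 11.63 in control BAT and 11.38, 11.37, 11.15, 11.40 and 11.02 in FXR BAT. No FXR array reached the lowest control, and FXR BAT 3 and 5 were again the lowest. Dlat fell to 75.4% of the control level, a log2 difference of -0.41 ± 0.08 (adjusted p = 0.00452, limma).

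**Figure D1:**
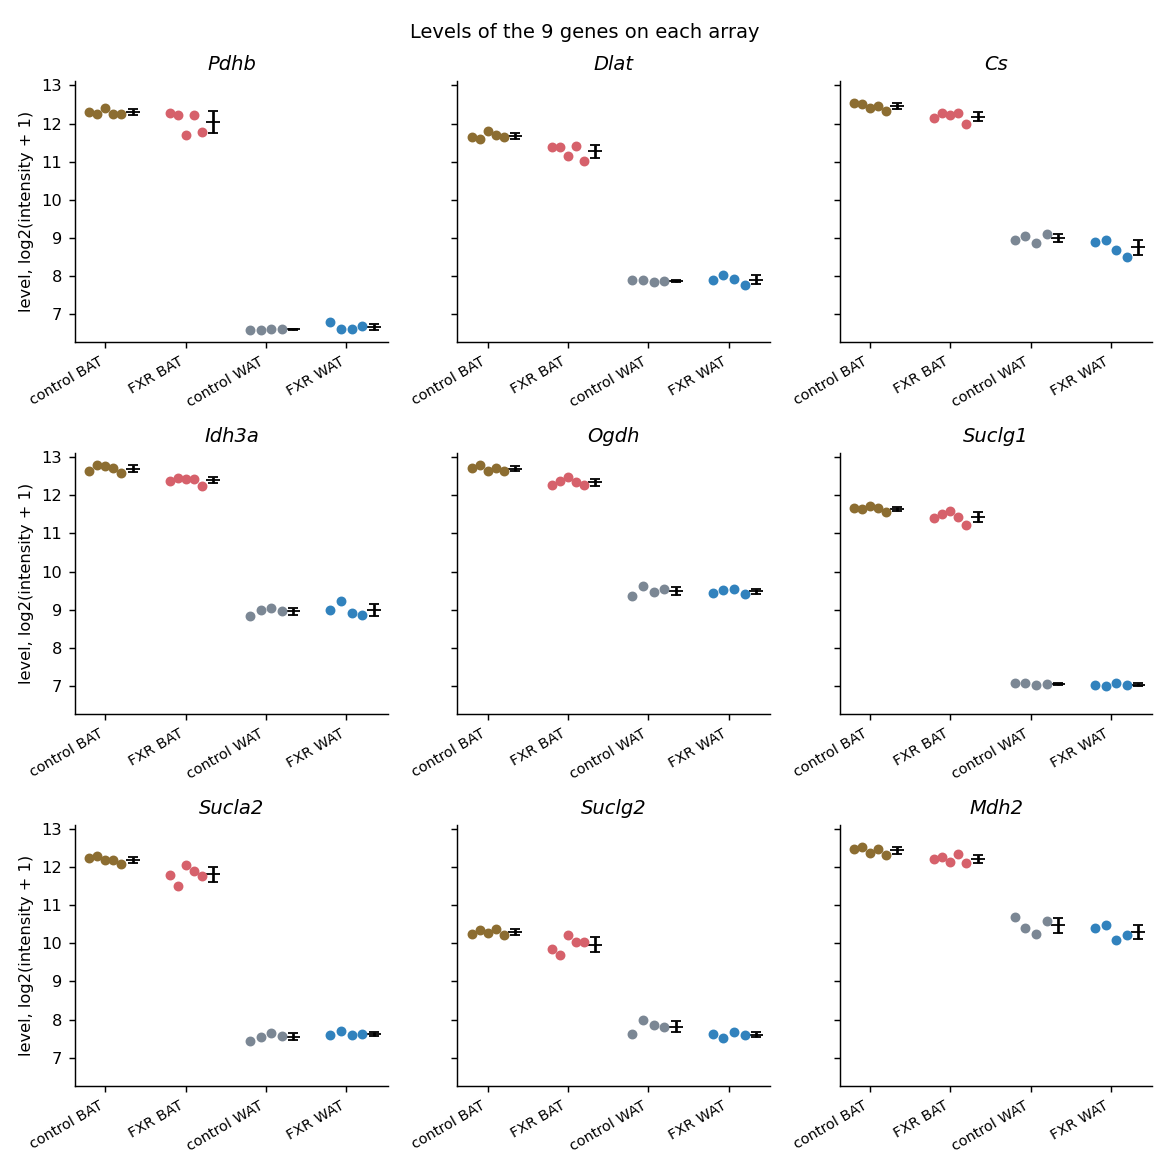
Level of each of the 9 genes, log2(intensity + 1), on every array (points, replicates from left to right), with the mean and SD of each group in black (n = 5, 5, 4 and 4). All 9 genes lie higher in BAT in these deposited values, in which limma called 94.8% of all genes higher in control BAT than in control WAT. In BAT the FXR arrays of Dlat, Cs, Idh3a, Ogdh and Sucla2 lie below all control arrays, which held for 6.29% of all genes.

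Cs (chr10:128337727-128362482) encodes citrate synthase, which joins acetyl-CoA to oxaloacetate and opens the cycle. Its levels were 12.55, 12.51, 12.42, 12.46 and 12.33 in control BAT and 12.15, 12.29, 12.21, 12.27 and 12.00 in FXR BAT. The groups did not overlap, although FXR BAT 2 came just under control BAT 5. The difference was -0.27 ± 0.06 (adjusted p = 0.0109, limma).

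Idh3a (chr9:54586511-54604662) encodes the catalytic subunit of the NAD-dependent isocitrate dehydrogenase, and Ogdh (chr11:6291597-6359094) the first enzyme of the 2-oxoglutarate dehydrogenase complex, which runs the next step. Idh3a read 12.64, 12.79, 12.77, 12.71 and 12.59 in control BAT and 12.39, 12.47, 12.43, 12.43 and 12.25 in FXR BAT. Ogdh read 12.71, 12.80, 12.64, 12.73 and 12.63 in control BAT and 12.26, 12.39, 12.48, 12.35 and 12.26 in FXR BAT. Both genes separated the genotypes cleanly, with all 5 FXR arrays under the controls. Idh3a fell by 0.31 ± 0.05 on the log2 scale (adjusted p = 0.00213, limma), and Ogdh fell by 0.35 ± 0.05 (adjusted p = 9.56e-04, limma), the smallest adjusted p among the 9.

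Succinyl-CoA synthetase releases succinate and makes a nucleoside triphosphate. It pairs the alpha subunit, encoded by Suclg1 (chr6:73248505-73276907), with an ADP-specific beta subunit, encoded by Sucla2 (chr14:73552786-73596144), or with a GDP-specific one, encoded by Suclg2 (chr6:95473009-95718858). Sucla2 read 12.23, 12.29, 12.18, 12.18 and 12.08 in control BAT and 11.79, 11.52, 12.06, 11.90 and 11.78 in FXR BAT. FXR BAT 2 was the lowest for Sucla2 and FXR BAT 3 the highest, only just under control BAT 5. Sucla2 fell by 0.38 ± 0.08 on the log2 scale (adjusted p = 0.0106, limma).

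Suclg2 read 10.25, 10.36, 10.26, 10.38 and 10.21 in control BAT and 9.86, 9.69, 10.22, 10.04 and 10.03 in FXR BAT. FXR BAT 2 was again the lowest, and FXR BAT 3 overlapped the controls. The difference was -0.32 ± 0.08 (adjusted p = 0.0250, limma). A second, dimmer probe set also carries the symbol Suclg2, and it gave -0.28 ± 0.07 (adjusted p = 0.0186, limma). The annotation does not tell if either probe set reads a near-identical copy elsewhere in the genome, so Suclg2 levels here are those of the probe set used.

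Suclg1 ranged from 11.57 to 11.71 in control BAT and from 11.23 to 11.59 in FXR BAT, where FXR BAT 3 overlapped the controls, and it fell by 0.22 ± 0.06 (adjusted p = 0.0280, limma). Mdh2 (chr5:135778649-135790386), the mitochondrial malate dehydrogenase that closes the cycle, ranged from 12.32 to 12.53 in control BAT and from 12.11 to 12.35 in FXR BAT. FXR BAT 4 overlapped the controls, and the fall was 0.22 ± 0.05 (adjusted p = 0.0189, limma).

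Skeletal muscle genes stood far higher on 3 of the FXR BAT arrays than on the other BAT arrays. The mean level of 25 muscle genes was 10.63, 9.99 and 10.66 on FXR BAT 1, 2 and 4. It was 6.98 and 8.38 on FXR BAT 3 and 5 and 6.89 to 8.58 on the control BAT arrays. Of the 25, 2 were called higher in FXR BAT, where 7.01% of all genes were. Muscle holds these mitochondrial enzymes too, and the members did not follow the muscle genes alike. Pdhb and Dlat were higher on FXR BAT 1, 2 and 4 than on FXR BAT 3 and 5, while Sucla2 and Suclg2 had their highest FXR value on FXR BAT 3, the array with the least muscle RNA of that group. Against the control mean, FXR BAT 3 and 5 without the other 3 gave -0.56 ± 0.06 for Pdhb (adjusted p = 0.00102, limma) and -0.59 for Dlat. In the same fit Sucla2 (-0.27, adjusted p = 0.0667), Suclg2 (-0.17, adjusted p = 0.193) and Suclg1 (-0.24, adjusted p = 0.124) lost their calls, and 6 members in all were lower, Pdhb among them. The lone pair of FXR arrays limits that fit.

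**Figure D2:**
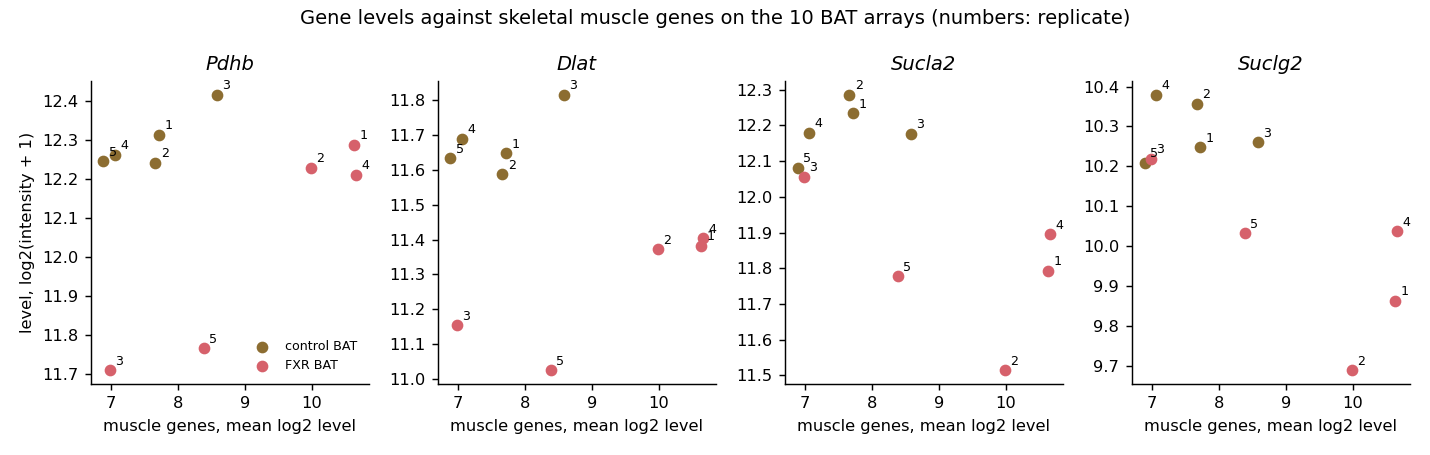
Level of Pdhb, Dlat, Sucla2 and Suclg2, log2(intensity + 1), against the mean log2 level of 25 skeletal muscle genes on the 10 BAT arrays, numbered by replicate. FXR BAT 3 and 5, at 6.98 and 8.38 on the muscle axis, are lowest for Pdhb and Dlat, whereas FXR BAT 2 is lowest for Sucla2 and Suclg2.

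Markers of other cells also moved with genotype in BAT, where limma called 8.75% of all genes lower and 7.01% higher. Of 20 macrophage genes, 20 were higher in FXR BAT, and their summed intensity rose from 2638–3459 to 5014–5811. Of 12 fibroblast genes, 12 were higher, with sums of 5322–8365 in control and 14126–17274 in FXR BAT. Of 11 brown adipocyte genes, 8 were lower and 1 was higher, with sums of 21502–26188 and 14922–17954, and Ucp1 fell by 0.48 on the log2 scale. Of 13 mature adipocyte genes, 9 were lower, with sums of 46787–54719 and 38524–42698. That list is bright, with a mean level of 11.55 in control BAT, and 54.8% of the bright genes counted above were lower. Without FXR BAT 1, 2 and 4, 18 of the macrophage and 12 of the fibroblast genes were still called higher, and 6 of the brown adipocyte and 4 of the mature adipocyte genes lower. Of 7 heart muscle genes and 3 erythroid genes none was called in BAT by limma, of 12 endothelial genes 4 were lower and 1 was higher, and of 12 white-selective adipocyte genes 3 were higher and 1 was lower. The part of these shifts, and of the muscle genes, in the members' lower levels was not tested.

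The other genes of the pyruvate dehydrogenase complex and the cycle moved the same way as the members. Of 12 such genes, 11 were lower in FXR BAT (limma, adjusted p below 0.05), with a median change of -0.32, and Sdhc, a membrane anchor of succinate dehydrogenase, gave -0.21 (adjusted p = 0.163). By the same rule 8.75% of all genes were lower, and 54.8% of the bright genes counted above, which were picked by their control BAT level. Most of the 12 are as bright. In the complex, Pdha1, the catalytic alpha subunit that partners Pdhb, gave -0.28 ± 0.07 (adjusted p = 0.0202, limma). Dld, the dihydrolipoamide dehydrogenase shared with the 2-oxoglutarate complex, gave -0.35, and Pdhx, which tethers it to the core, gave -0.31 (-0.47 without FXR BAT 1, 2 and 4). In the cycle, the regulatory isocitrate dehydrogenase subunits Idh3g and Idh3b gave -0.34 and -0.24, next to the -0.31 of their partner Idh3a. Dlst, the core of the 2-oxoglutarate complex, gave -0.39 next to the -0.35 of Ogdh. Sdha and Sdhd, the flavoprotein and an anchor of succinate dehydrogenase, gave -0.32 and -0.39. With quantile normalization, and likewise without control BAT 2 and 4, 5 of these 12 genes were lower.

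Genes that control the complex went in both directions. Of 7 regulators, 3 were lower and 1 was higher in FXR BAT. Both phosphatases that switch the complex on are among them: Pdp2 fell from 8.62 ± 0.21 (SD, n = 5) to 7.95 ± 0.18, a log2 difference of -0.67 ± 0.11 (adjusted p = 0.00193, limma), while Pdp1 rose by 0.32 ± 0.09 (adjusted p = 0.0380, limma). Pdpr, the regulatory subunit of the phosphatase, gave -0.27, and the kinase Pdk2, which switches the complex off, gave -0.32. Pdk4, the kinase that fasting induces, read 12.58 ± 0.07 (SD, n = 5) in control and 12.52 ± 0.25 in FXR BAT, and its difference of -0.06 did not pass (95% interval -0.28 to 0.16, adjusted p = 0.771, limma). Of the 3 lipoate synthesis genes, which make the cofactor of Dlat and Dlst, Lipt1 fell by 0.34 and Lias fell by 0.27.

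Of 7 genes of pyruvate entry and of routes that refill the cycle, 1 was higher and 2 were lower. Got2, the mitochondrial aspartate aminotransferase, rose from 8.40 ± 0.16 (SD, n = 5) to 9.13 ± 0.31, by 0.73 ± 0.13 on the log2 scale (adjusted p = 0.00377, limma), and was the only one of the 39 other pathway genes to rise beside Pdp1. Its levels were 9.40, 9.06 and 9.50 on FXR BAT 1, 2 and 4, the arrays rich in muscle genes, and 8.81 and 8.89 on FXR BAT 3 and 5, and without the former 3 it rose by 0.45 (adjusted p = 0.0210, limma). Pcx, pyruvate carboxylase, gave -0.29 and Glud1, glutamate dehydrogenase, gave -0.26. Of 10 cytosolic and NADP-linked counterparts of cycle enzymes, 2 were lower: Idh1 gave -0.25 and Pck1 gave -0.41. In all, 20 of the 39 other pathway genes were lower, 2 were higher and 17 were not called, where 8.75% of all genes were lower and 7.01% higher. The count of lower genes was 12 without control BAT 2 or without control BAT 4, and 13 without FXR BAT 5. Without FXR BAT 1, 2 and 4, Pdp1 (0.23), Pdpr (-0.13), Pdk2 (-0.27), Lias (-0.22), Glud1 (-0.15) and Pck1 (-0.38) were no longer called.

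The second comparison asked the same of WAT. None of the 9 members was called by limma after adjustment, where 1.33% of all genes were called, and 2 members (Cs and Suclg2) had an unadjusted p below 0.05. The members' median change was -0.02, against 0.00 for all genes. Cs read 8.95, 9.04, 8.88 and 9.11 in control WAT and 8.88, 8.93, 8.69 and 8.50 in FXR WAT, so FXR WAT 3 and 4 lay under all controls and the groups overlapped. Its difference was -0.24 ± 0.09 (95% interval -0.46 to -0.03, adjusted p = 0.325, limma). Suclg2 read 7.62, 7.99, 7.85 and 7.80 in control WAT and 7.62, 7.53, 7.69 and 7.59 in FXR WAT, with control WAT 1 level with the FXR arrays. Its difference was -0.21 ± 0.07 (95% interval -0.37 to -0.05, adjusted p = 0.244, limma), and the mean of both its probe sets was called (-0.21, adjusted p = 0.0411, limma).

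The other 7 members gave differences between -0.18 for Mdh2 and 0.08 for Sucla2, with adjusted p-values of 0.602 or more (limma). Their intervals differ in what they allow. For Dlat the interval ran from -0.09 to 0.15, for Ogdh from -0.15 to 0.11 and for Suclg1 from -0.09 to 0.04, so a fall as large as that measured in BAT lay outside each. For Mdh2 it ran from -0.43 to 0.08, which takes in the -0.22 of BAT. Pdhb and Suclg1 were dim in WAT, at 2.06 and 2.82 times the low end (the 1% quantile) of intensities on control WAT arrays, and differences of such dim genes are compressed.

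Of the 39 other pathway genes, 3 were lower in FXR WAT and none was higher by limma, where 0.456% of all genes were lower. Sdha gave -0.34 ± 0.06 (adjusted p = 0.0422, limma) in WAT. Pdk2 fell from 7.79 ± 0.16 (SD, n = 4) to 7.31 ± 0.09, by 0.48 on the log2 scale. Aco1, the cytosolic aconitase that doubles as an iron sensor, gave -0.50. Sdha and Pdk2 thus fell in both tissues, while Aco1 did not pass in BAT (-0.25, adjusted p = 0.0599, limma). These WAT calls rested on few arrays: without control WAT 2, control WAT 4 or FXR WAT 4 none of the 39 genes was called by limma, without control WAT 1, FXR WAT 1 or FXR WAT 2 only 1 was, and Sdha kept its call only without control WAT 3. The size of the Sdha difference stayed between -0.29 and -0.38 in those fits. Idh3b, at -0.23, had an adjusted p of 0.0577 (limma) in WAT. Of the 20 macrophage and the 12 fibroblast genes, none was called in WAT by limma (up to 4 fibroblast genes under other settings), although their median changes were 0.20 and 0.49.

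**Figure D3:**
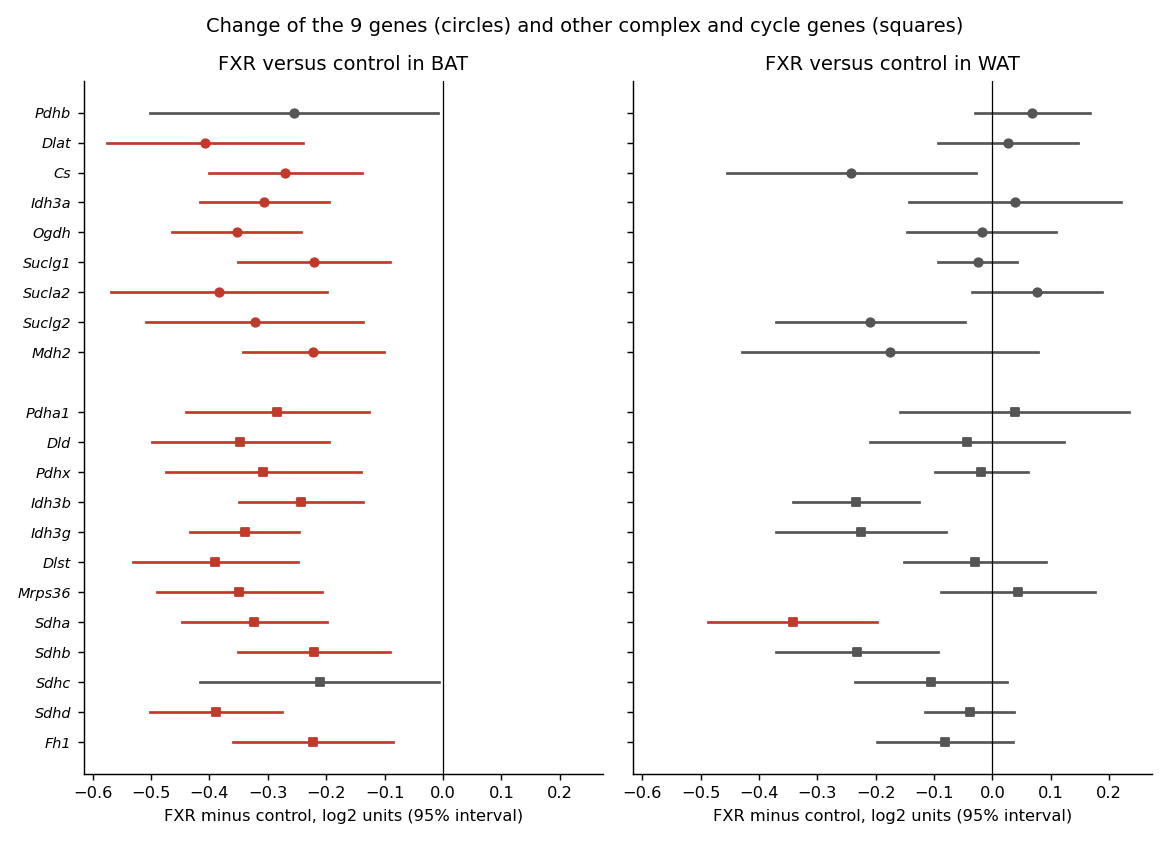
Change of each gene, FXR minus control in log2 units with its 95% interval, in BAT (left, n = 5 per genotype) and in WAT (right, n = 4 per genotype), for the 9 members (circles) and 12 other complex and cycle genes (squares). Red marks genes lower at an adjusted p below 0.05 (limma): 8 members and 11 others in BAT, and only Sdha in WAT.

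A test of the difference itself, the WAT change less the BAT change in a fit of the 18 arrays, passed for 4 members. For all 4 the BAT change lay below the WAT change, and 4.44% of all genes passed in that direction. Sucla2 gave 0.46 ± 0.11 (adjusted p = 0.0165, limma), Dlat 0.43 ± 0.10 (adjusted p = 0.0158), Idh3a 0.34 ± 0.10 (adjusted p = 0.0392) and Ogdh 0.34 ± 0.08 (adjusted p = 0.0148). Cs (0.03) and Mdh2 (0.05) had almost the same change in both tissues, with 95% intervals from -0.21 to 0.27 and from -0.22 to 0.31. With quantile normalization none of the 9 passed, and without control BAT 2 and 4 only Dlat did. Brown adipocyte genes showed the same difference for 8 of 11, and whether the members' difference followed from it was not tested.

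The third comparison set BAT against WAT within each genotype. In control mice all 9 members were higher in BAT, from 3.89-fold for Mdh2 and 5.56-fold for Suclg2 to 25.0-fold for Sucla2 and 51.9-fold for Pdhb. Nearly every gene did the same in these files, with 94.8% of all genes higher in control BAT and 95.1% in FXR BAT (limma, adjusted p below 0.05), so the calls say little about the members, and tissue and processing cannot be told apart. The sizes stood further out: the members' median was 3.74 on the log2 scale against 0.59 for all genes. Under quantile normalization, which removes the offset between the tissues, the median was 2.12 against -0.04, and all 9 were still called higher in control BAT. The folds then ran from 1.18 for Mdh2 (adjusted p = 0.0371, limma) and 1.94 for Suclg2 to 8.67 for Suclg1 and 20.1 for Pdhb. Dim signal in WAT limits the folds unequally. In control WAT, Pdhb and Sucla2 lay at 2.06 and 3.97 times the low end of intensities, and Mdh2 at 30.3 times. In FXR mice the deposited values gave 41.5-fold for Pdhb, 18.2-fold for Sucla2 and 3.77-fold for Mdh2, with a median of 3.40. Pdk4 was 40.3-fold higher in control BAT than in control WAT, while Pcx (1.75-fold), Glud1 (1.52-fold) and Pdp1 (1.24-fold) were higher by little as deposited, and these 3 were lower in BAT under quantile normalization (-0.87, -1.04 and -0.86 in log2 units).

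**Figure D4:**
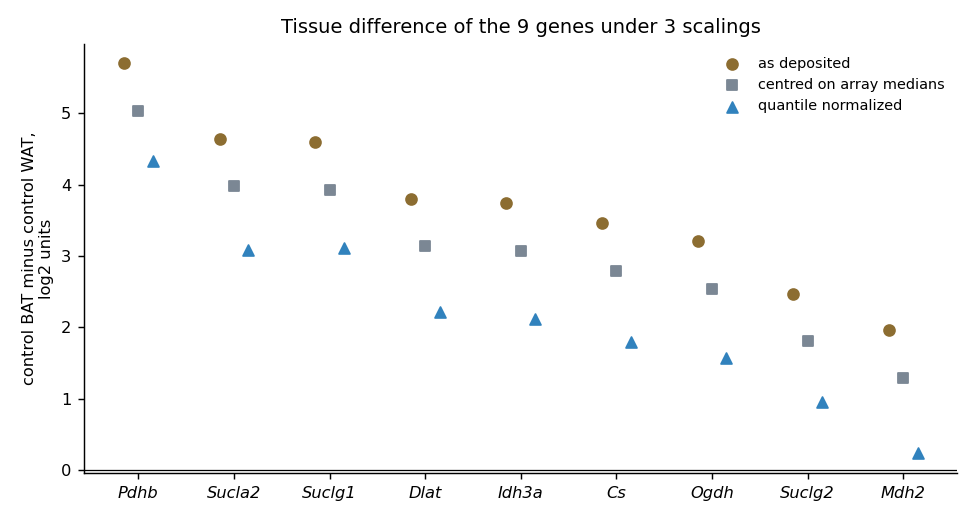
Control BAT minus control WAT in log2 units for each of the 9 genes, as deposited (circles), after centring on array medians (squares) and after quantile normalization (triangles), ordered by the deposited difference. Every point lies above 0, from 5.70 as deposited for Pdhb down to 0.24 after quantile normalization for Mdh2.

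RNA levels of the 2 beta subunits of succinyl-CoA synthetase differed between the tissues by unlike amounts, as the folds above show. Both genes were dim in control WAT, at 3.97 times (Sucla2) and 4.78 times (Suclg2) the low end of intensities. Tissue and processing cannot be told apart here either. The log2 level of Sucla2 minus that of Suclg2 has no meaning on its own, since it sets one probe set against another, and was compared between groups only. It was 1.90 ± 0.07 (SD, n = 5) in control BAT and -0.27 ± 0.12 (n = 4) in control WAT, with no overlap, a difference of 2.17 log2 units. A two-sided exact permutation test gave p = 0.00794, the smallest that 126 arrangements allow. Folds as unlike as those above made this result near certain. Other gene pairs were not compared, so the p-value shows nothing particular to these 2 genes. With the second, dimmer probe set of Suclg2, used after seeing the data, the tissue difference was 2.54 log2 units. In BAT it did not differ detectably between genotypes, with 1.84 ± 0.07 (n = 5) in FXR BAT, a difference of -0.06 and exact p = 0.206. In WAT it was 0.02 ± 0.11 (n = 4) in FXR mice, 0.29 higher than in controls with no overlap, and the exact p was 0.0286, the smallest that 70 arrangements allow. With the second probe set the differences were -0.11 in BAT and 0.29 in WAT. Without control WAT 2, the WAT difference was 0.23 with an exact p of 0.0571.

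**Figure D5:**
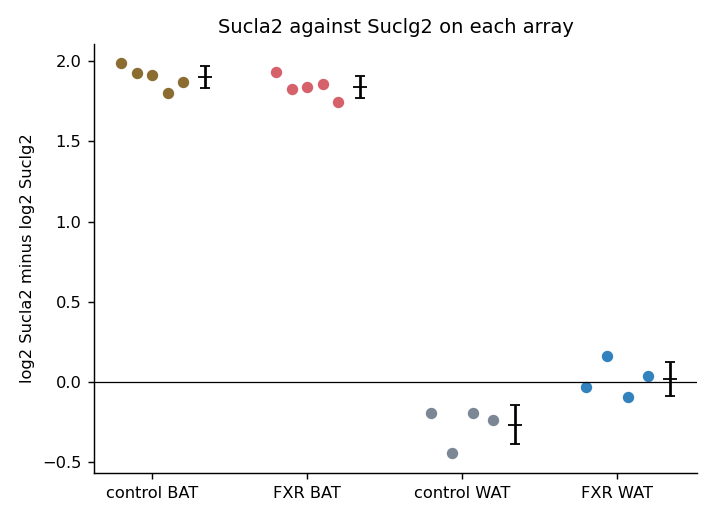
Log2 level of Sucla2 minus log2 level of Suclg2 on each array (points), with group means and SD in black (n = 5, 5, 4 and 4). BAT arrays lie between 1.75 and 1.99 and WAT arrays between -0.45 and 0.16, and the FXR WAT arrays lie above all control WAT arrays.

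Within groups, the members varied together to unlike degrees, and other sets of genes were not compared. After each group's mean was removed, the Pearson correlations of the 36 pairs of members over the 18 arrays ran from -0.57 to 0.76 with a median of 0.26. Cs (0.76) and Idh3a (0.68) followed the mean of the other members, while Pdhb (0.05), Sucla2 (0.13) and Suclg2 (-0.08) did not. The genes most like the mean of the 9 were therefore most like an average that some members do not follow. On the same scale, the Pearson correlation with that mean was 0.88 for Sult4a1 (Spearman's rho 0.76), 0.84 for Ndufb6, 0.81 for Ndufs4, 0.81 for Tlcd1 and 0.81 for Nudt2. Ndufb6 and Ndufs4 encode subunits of respiratory complex I. These values are descriptions, picked as the highest of all genes, and the arrays share their processing.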

How the data were processed

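RNA of 18 adipose samples had been hybridised to Affymetrix mouse gene arrays. The deposited value table holds linear intensities, 1 per probe set and array; the sources used here do not give how the authors summarised and normalized them. The platform annotation pairs 21640 of 34760 probe sets with 1 gene symbol, 1321 with several and 11799 with none. The brightest probe set over all arrays stood for each of 19937 genes.

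Here log2(intensity + 1) was fitted in limma 3.58.1 (lmFit, then eBayes; R 4.3.3), with no filter and no further normalization. The genotypes were compared in a fit of 10 BAT arrays and in a fit of 8 WAT arrays, their changes were compared over 18 arrays, and BAT was set against WAT within genotype. P-values are two-sided and Benjamini-Hochberg adjusted over all genes, with a threshold of 0.05, and intervals are 95%. P-values measure the spread between samples as labelled, and the number of arrays limits the precision. The fit was also run on simulated data with independent noise for each gene. Those data held no shift in muscle RNA or in the brightness of whole arrays, so the run says nothing about such shifts.

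The members and gene lists were chosen with earlier results of these data known. Named genes were the 9 members, Pdk4, Pdha1, Idh3b, Idh3g, Dlst and Sdha whatever their values, up to 3 called genes per pathway list, genotype comparison and direction with the smallest adjusted p, and the 5 genes most like the members. One further gene of that set and a few listed genes had no probe set with a single symbol and were not analysed here. Sdhc, outside this rule, was named because a count turned on it after its value had been seen. Heart muscle, endothelial, erythroid and white-selective adipocyte lists were also counted. Bright genes, picked by their level in control BAT, were counted apart after the data had been seen. Alternatives were quantile normalization, centring, a pseudocount of 32, the mean of probe sets, a filter on dim genes, trend and array weights, all arrays in 1 fit, a replicate block, and leaving out arrays.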

Additional observations from a re-analysis of the deposited data

Results flagged for a closer look

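The change with FXR differed between WAT and BAT for 8 of the genes described, by a test of the difference itself (limma over 18 arrays, WAT change minus BAT change, adjusted over all genes). Among the members these were Dlat (0.43, adjusted p = 0.0158), Idh3a (0.34, adjusted p = 0.0392), Ogdh (0.34, adjusted p = 0.0148) and Sucla2 (0.46, adjusted p = 0.0165). Among the other pathway genes they were Dlst (0.36, adjusted p = 0.0227), Pdp2 (0.58, adjusted p = 0.0160), Sdhd (0.35, adjusted p = 0.00428) and Mrps36 (0.39, adjusted p = 0.0165), a subunit that ties the 2-oxoglutarate complex together. All 8 were lower in FXR BAT, and none was called in FXR WAT by limma, with WAT differences from -0.09 for Pdp2 to 0.08 for Sucla2. Pdp2 lay at 1.49 and 1.40 times the low end of intensities in control and FXR WAT, where a change could hardly show, and Mrps36 at 2.04 and 2.11 times, so their differences between tissues are limited by dim signal in WAT. No single array stood apart from the rest of its group in the 36 groups of member values tested, by the gap between the outermost array and the next. Such a test cannot flag a pair of arrays that deviate together, as FXR BAT 3 and 5 did for Pdhb.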

How the results depend on the processing

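The 8 members lower in FXR BAT became 3 under quantile normalization of all 18 arrays, 3 without control BAT 2 and 4, and from 5 to 8 when single arrays were left out, the 5 without control BAT 2. Centring on array medians gave 9, and with it 16.0% of called genes were higher in FXR BAT, against 44.5% as deposited, since the median of all genes moved to -0.07. The members called in WAT went from 0 to 1 (Suclg2) with the mean of probe sets and stayed at 0 when single arrays were left out. The 4 members whose change differed between tissues became 0 under quantile normalization, 2 with an intensity trend and robust eBayes, 1 without control BAT 2 and 4, and 3 to 5 with single arrays left out. The 9 members higher in BAT were called under every setting run, in both genotypes. The Sucla2 to Suclg2 difference between genotypes in WAT ranged from 0.23 to 0.32 with single arrays left out, and lost its call (0.23, exact p = 0.0571) without control WAT 2. Quantile normalization turned the sign between control BAT and control WAT for Pdp1 (-0.86), Got2 (-0.37), Glud1 (-1.04), Pcx (-0.87) and Aco1 (-0.23), and centring did so for Pdp1 (-0.35) and Glud1 (-0.056). Between FXR BAT and FXR WAT, quantile normalization turned Pdp1 (-0.56), Glud1 (-0.96) and Pcx (-0.74), and centring Pdp1 (-0.090), Glud1 (-0.28) and Pcx (-0.027). The other 20 pathway genes lower in BAT became 7 under quantile normalization, 8 without control BAT 2 and 4, 12 without either of these arrays alone and 13 without FXR BAT 5. The 4 other pathway genes whose change differed between tissues became 1 under quantile normalization, 1 without control BAT 2 and 4, and 12 without FXR BAT 1, 2 and 4. The cause of these shifts was not tested.

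Replicate numbers are shared between groups, but the sources used here do not say if both tissues came from the same animals. The numbers were therefore not taken as pairs. Correlations of deviations from the group means between same-numbered samples ran from -0.49 to 0.28 between the BAT groups. They ran from 0.0085 to 0.16 between the WAT groups, -0.083 to 0.26 between control BAT and control WAT and 0.059 to 0.13 between FXR BAT and FXR WAT. Differently numbered samples were not compared, so these values cannot decide on pairing. With the replicate block, 7 members were lower in BAT (Suclg2 adjusted p = 0.0508, limma), 0 were called in WAT, 5 differed between tissues, and 9 were higher in BAT in each genotype. Dim signal limits WAT: between 58.7% and 63.2% of probe sets there lay within 1.5-fold of the low end of their array, against 29.3% to 35.5% in BAT.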
